A study of Mus musculus with 6 samples.

Results

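The genes described here make the building blocks of DNA and RNA and the one-carbon units that go into them. The members are 43 genes named by symbol, out of 24411 genes listed in each library, and all 43 were listed and had a count above 0 in every library. They fall into 5 sets: 11 genes of deoxynucleotide (dNTP) supply, 6 of pyrimidine synthesis, 10 of purine synthesis, 8 of serine and folate metabolism, and 8 that make phosphoribosyl pyrophosphate (PRPP), exchange nucleotide phosphates or salvage purines. RNA was sequenced from macrophages of C57BL/6 mice, grown for 7 days with M-CSF, the macrophage growth factor, at 20 ng/ml in medium with 10% serum. The cells came from bone marrow monocytes sorted as low for both LFA1 and Itgam or as high for both. The cultures are named LFA1-lo and LFA1-hi after the sort, with 3 libraries each and no other treatment in either. Sex and age of the mice are not stated in the labels, nor is whether the 3 libraries per group derive from different mice or dishes. The p-values therefore reflect the spread among these samples alone, and that spread may be technical.

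A cell that copies its DNA must supply dNTPs during S phase. Ribonucleotide reductase makes them from ribonucleotides, thymidylate synthase adds the methyl group of thymidylate from a folate, and folate one-carbon units derived from serine also enter the purine ring. The purine ring is built on ribose phosphate delivered by PRPP, while the pyrimidine ring is made first, as orotate, and then joined to PRPP, and salvage enzymes recover bases and nucleosides of both kinds. Macrophages grown in M-CSF can divide, while in resting macrophages the phosphohydrolase SAMHD1 is known to keep dNTP pools low.

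Summed expected counts, the depth of a library, were 15191262 to 17614509, and the members took 0.188% to 0.215% of all counts in the LFA1-lo group against 0.323% to 0.345% in the LFA1-hi group. Macrophage markers such as Adgre1 and Csf1r were abundant in every library, where 10 of them summed to 18560 to 23700 CPM (counts scaled to a common library size) across LFA1-lo and 14400 to 16710 CPM across LFA1-hi libraries, mostly from Lyz2. Of these 10 markers 6 were lower and 1 was higher in LFA1-hi. Adgre1 (−0.83) and Csf1r (−1.02) were among the lower ones, and the part of these markers in the results was not tested. Pax5 of B cells, Cd3d, Cd3e and Cd3g of T cells, Ncr1 of NK cells and Flt3 of dendritic and progenitor cells were at 0 in all 6 libraries. Other genes of these lists were not all at 0. The 5 B cell genes summed to 1.015 to 3.70 CPM across LFA1-lo and 2.295 to 3.02 CPM in LFA1-hi. Single T cell, NK cell and dendritic genes reached at most 0.255, 0.418 and 0.587 CPM. The 6 mast cell and basophil genes summed to 1.37 to 6.83 CPM across LFA1-lo and 0.955 to 1.62 CPM in LFA1-hi. Of these, 1 was lower in LFA1-hi, and their part in the results was not tested. Of 7 listed neutrophil genes 3 were lower in LFA1-hi (sum 67.6 to 77.8 against 23.6 to 28.6 CPM), and their part in the results was not tested. Markers of dividing cells that are not members, such as Mki67, Top2a and Mcm2, were higher in 19 of 20 cases. They summed to 1429 to 1752 CPM across LFA1-lo and 3457 to 3737 CPM in LFA1-hi. The exception was Pcna, whose groups overlapped (log2 fold change 0.25, edgeR adjusted p = 0.396). Progenitor genes (Kit and Meis1 lower) summed to 10.0 to 11.2 CPM across LFA1-lo and 5.20 to 7.83 CPM in LFA1-hi. The part of both lists in the results was not tested. In such bulk samples fewer cells of a type and less RNA per cell cannot be told apart. LFA1-lo replicate 2 was the highest of its group for most members, so values without it are given where they change a call.

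The stretches of genome just before listed start sites of 6 members are shown. These 6 are shown because they belong to pairs or branches whose members differed in their calls. A difference in call is not a tested difference in response. Rrm2, Tk1 and Tk2 were named by rule, and Rrm1, Phgdh and Mthfd2 were added after their values were seen. The sequences are from RefSeq on GRCm38.p6, of up to 250 bases before the listed start, read 5′ to 3′ on the gene's strand, without bases that GENCODE annotates as exon. They lie at chr12:24708004-24708240 (plus strand) for Rrm2, chr7:102441445-102441694 (plus) for Rrm1, chr11:117826093-117826264 (minus) for Tk1, chr8:104248559-104248808 (minus) for Tk2, chr3:98339991-98340219 (minus) for Phgdh and chr6:83317607-83317854 (minus) for Mthfd2. For Tk1, Tk2 and Mthfd2 the listed starts, 117826014, 104248558 and 83317604, lie inside their RefSeq gene spans. These spans end at 117826087, 104248592 and 83326011. The Tk2 sequence thus lies partly, and the Mthfd2 sequence wholly, inside the gene span. For Tk1, 78 exonic bases next to the listed start were left out, so its sequence lies outside the span and not directly before that start. In the sequences, capitals mark matches, on either strand, to the motifs described after them.
Rrm2: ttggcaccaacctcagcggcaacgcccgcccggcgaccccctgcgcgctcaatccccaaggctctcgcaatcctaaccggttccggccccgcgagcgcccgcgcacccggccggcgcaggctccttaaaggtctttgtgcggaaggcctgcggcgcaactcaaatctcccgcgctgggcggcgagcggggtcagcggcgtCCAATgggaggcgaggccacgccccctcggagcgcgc
Rrm1: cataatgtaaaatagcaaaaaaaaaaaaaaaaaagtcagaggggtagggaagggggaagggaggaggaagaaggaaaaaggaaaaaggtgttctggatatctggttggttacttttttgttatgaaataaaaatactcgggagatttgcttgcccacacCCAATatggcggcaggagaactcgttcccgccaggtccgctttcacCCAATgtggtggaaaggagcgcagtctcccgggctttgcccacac
Tk1: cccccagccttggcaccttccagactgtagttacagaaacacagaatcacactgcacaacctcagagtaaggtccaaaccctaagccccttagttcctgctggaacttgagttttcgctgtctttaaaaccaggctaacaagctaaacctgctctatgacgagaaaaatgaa
Tk2: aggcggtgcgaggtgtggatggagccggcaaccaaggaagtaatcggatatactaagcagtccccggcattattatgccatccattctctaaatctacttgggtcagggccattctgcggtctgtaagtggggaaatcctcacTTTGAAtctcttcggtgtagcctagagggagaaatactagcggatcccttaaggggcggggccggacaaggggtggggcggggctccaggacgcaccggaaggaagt
Phgdh: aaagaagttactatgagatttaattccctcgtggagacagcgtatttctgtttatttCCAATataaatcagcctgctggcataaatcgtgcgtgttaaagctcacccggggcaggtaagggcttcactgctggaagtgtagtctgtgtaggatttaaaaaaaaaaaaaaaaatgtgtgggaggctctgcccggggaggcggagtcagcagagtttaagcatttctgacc
Mthfd2: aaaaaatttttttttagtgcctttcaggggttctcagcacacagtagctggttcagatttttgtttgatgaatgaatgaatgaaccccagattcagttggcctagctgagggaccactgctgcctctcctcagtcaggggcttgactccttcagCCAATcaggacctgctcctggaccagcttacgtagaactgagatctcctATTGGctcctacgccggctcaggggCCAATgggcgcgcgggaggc

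The letters searched were CCAAT (the box bound by NF-Y), CACGTG (the E-box), TTTGAA (the core of the cell cycle element CHR), TGATGNAAT (an ATF4-type element), and TTTCCCGC, TTTGGCGC, TTTCCCGG or TTTGGCGG as E2F-type sites. Both strands were searched, CACGTG reads the same on both, and no motif contains another. Promoters were listed for 40 members, but not for Dhodh, Pfas and Rrm2b. In the full 250 bases CCAAT was found for 18 of 40 members (45.0%) and for 37.5% of all 27025 genes, counting any listed start. By set it was found for 6 of 8 serine and folate, 5 of 10 dNTP, 3 of 8 PRPP, kinase and salvage, 3 of 9 purine and 1 of 5 pyrimidine members. The shown Rrm2 sequence holds CCAAT once, starting 50 bases before the start site, and that of Rrm1 holds it 91 and 45 bases before. Mthfd2 has 3 matches, 96, 47 and 22 bases before its listed start, the middle one on the other strand. CACGTG was found for 6 of 40 members (6.86% of all genes), namely Tyms, Dtymk, Atic, Impdh2, Paics and Nme1. An E2F-type match was found for 2 of 40 members, Ppat and Ada (3.10% of all genes). TTTGAA was found for 6 of 40 (18.3% of all genes), with 1 match in Tk2, 107 bases before its listed start. TGATGNAAT was found for 0 of 40 (0.910% of all genes), and the shown Tk1 sequence holds none of these letters.

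The single comparison of the design asks how macrophages from LFA1-hi monocytes differ from those from LFA1-lo monocytes after the same culture. Nucleotide and one-carbon genes were mostly higher in LFA1-hi macrophages. Of 43 members 33 rose and 1 fell by edgeR's quasi-likelihood test at an adjusted p under 0.05, where 16.1% of all 11692 tested genes rose and 15.6% fell (31.7% in either direction). All 43 passed the filter on low counts. The members were chosen with earlier results of these data known, so these shares are a description. The median log2 fold change (LFA1-hi minus LFA1-lo) of the members was 0.77, against 0.00 over all tested genes. In 35 members the 3 LFA1-hi libraries all lay above the 3 LFA1-lo libraries, and in 1 all lay below, where 24.8% and 22.9% of tested genes did so. At least 2-fold rises were called for 12 members, 7 of them of dNTP supply, against 5.32% of tested genes. The count of members that rose was 20 when LFA1-hi replicate 1 was left out, 21 when LFA1-hi replicate 2 was and 36 when LFA1-lo replicate 2 was.

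**Figure D1:**
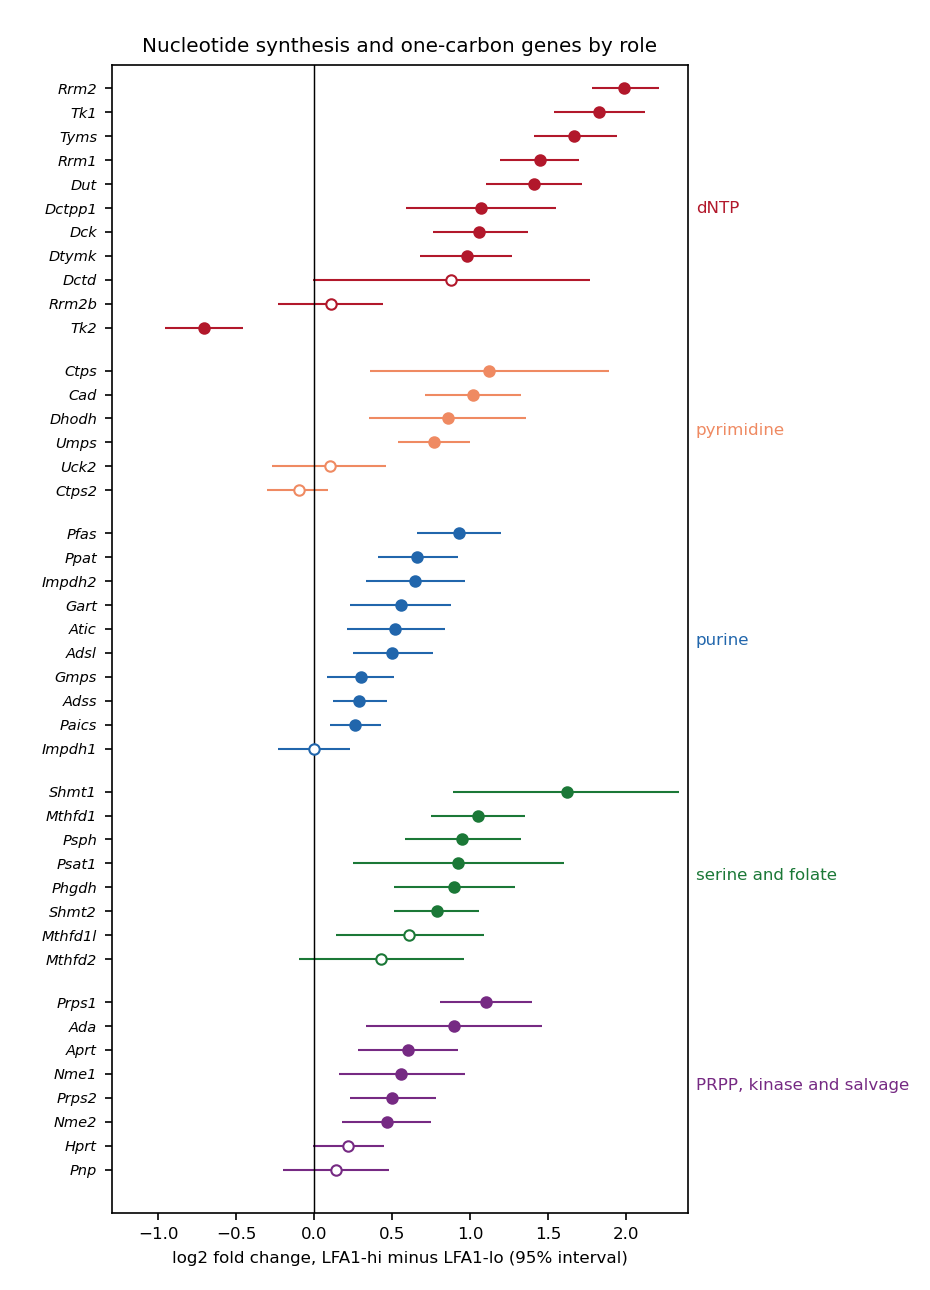
Each point is the log2 fold change of 1 member (x axis, LFA1-hi minus LFA1-lo) with its 95% interval, by set, and filled points passed an adjusted p of 0.05 in edgeR. The dNTP genes reach furthest to the right, up to 1.99 for Rrm2, Tk2 stands alone on the left at −0.71, and the purine genes lie between 0.00 and 0.93.

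In TPM, the deposited abundance scaled for transcript length and library, a level per transcript, the sets differed in how much their summed level moved. The 11 dNTP genes summed to 308, 278 and 358 TPM in LFA1-lo replicates 1, 2 and 3 and to 771, 845 and 739 TPM in LFA1-hi, a ratio of means of 2.50. The serine and folate genes summed to 295 ± 82.6 TPM in LFA1-lo and 502 ± 28.8 TPM in LFA1-hi (mean ± SD, n = 3 each; ratio 1.70). Pyrimidine genes, the least abundant set, summed to 74.8 ± 6.22 and 104 ± 3.18 TPM (ratio 1.395), purine genes to 441 ± 30.9 and 573 ± 13.2 TPM (ratio 1.30), and the PRPP, kinase and salvage genes to 1083 ± 107 and 1465 ± 46.2 TPM (ratio 1.35). In each of the 5 sets the summed TPM of the groups did not overlap. Median log2 fold changes were 1.07 for dNTP, 0.91 for serine and folate, 0.81 for pyrimidine, 0.53 for PRPP, kinase and salvage, and 0.51 for purine genes. These medians are given as a description, and the difference between sets was not tested.

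Of the dNTP genes 8 of 11 rose and 1 fell. Ribonucleotide reductase has a large subunit encoded by Rrm1 and a small subunit encoded by Rrm2 in dividing cells or by Rrm2b, which is induced by p53 and also serves cells outside S phase. Rrm2 (GRCm38 chromosome 12, 24708254 to 24714146) stood at 51.3, 44.9 and 56.0 TPM in LFA1-lo replicates 1 to 3 and at 202, 215 and 180.3 TPM in LFA1-hi. All 3 LFA1-hi libraries were above the highest LFA1-lo library, and the rise was the largest of the 43 (log2 fold change 1.99 with SE 0.10, adjusted p = 9.81e-06 by edgeR). Rrm1 (chromosome 7, 102441695 to 102469771) was at 46.3, 38.5 and 54.1 TPM against 121, 137 and 115 TPM, also without overlap (1.45, SE 0.11, adjusted p = 4.69e-05). Rrm2b, at 6.05, 7.69 and 7.29 TPM in LFA1-lo and 6.51, 7.86 and 7.99 TPM in LFA1-hi, overlapped between the groups. Its 95% interval ran from −0.23 to 0.44 (log2 fold change 0.11, adjusted p = 0.623), and the estimate for Rrm2 lies outside it.

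Thymidine kinases recover thymidine, in the cytosol of S phase cells through Tk1 and in mitochondria through Tk2, and they moved in opposite directions. Tk1 (chromosome 11, 117815519 to 117826087) was at 41.6, 28.6 and 41.7 TPM in LFA1-lo and 130.0, 137 and 124 TPM in LFA1-hi (log2 fold change 1.83 with SE 0.13, adjusted p = 2.97e-05 by edgeR). Tk1 overlaps Afmid in RefSeq, as Cad does Atraid, Shmt2 Ndufa4l2, Gmps Slc33a1 and Ctps2 S100g. Reads of an overlap could be assigned to either gene. The expected counts of these members were whole numbers in all 6 libraries, as when no read is divided between genes. Tk2 (chromosome 8, 104226691 to 104248592) was at 29.5, 26.8 and 26.7 TPM in LFA1-lo and 15.5, 16.3 and 17.9 TPM in LFA1-hi. It was the only member to fall, with every LFA1-hi library below every LFA1-lo library (−0.71, SE 0.11, adjusted p = 0.00149).

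The enzymes that make and phosphorylate thymidylate rose. Tyms, thymidylate synthase, went from 5.52 ± 0.260 to 17.4 ± 1.07 TPM (n = 3 each; log2 fold change 1.67 with SE 0.12, adjusted p = 2.62e-05 by edgeR). Dut, which removes dUTP and so yields the precursor of thymidylate, went from 9.86 ± 1.32 to 25.6 ± 1.45 TPM (1.41, SE 0.14, adjusted p = 0.00012). Dtymk, which phosphorylates thymidylate, rose by 0.98 and Dctpp1, a phosphatase of dCTP, by 1.07. Dck, the kinase that recovers deoxycytidine, went from 44.1 ± 8.66 to 91.0 ± 8.35 TPM (1.06). Dctd, which deaminates dCMP, was the scarcest dNTP gene at 1.22, 3.34 and 1.90 TPM in LFA1-lo and 3.77, 5.02 and 3.62 TPM in LFA1-hi. Its groups did not overlap but the test was not passed (0.88, 95% interval −0.01 to 1.77, adjusted p = 0.122). Without LFA1-lo replicate 2, Dctd was called (1.38, adjusted p = 0.00662, in a range over alternatives from 0.00662 to 0.288). The 9 called dNTP genes were called in each of the 6 fits that left out 1 library.

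**Figure D2:**
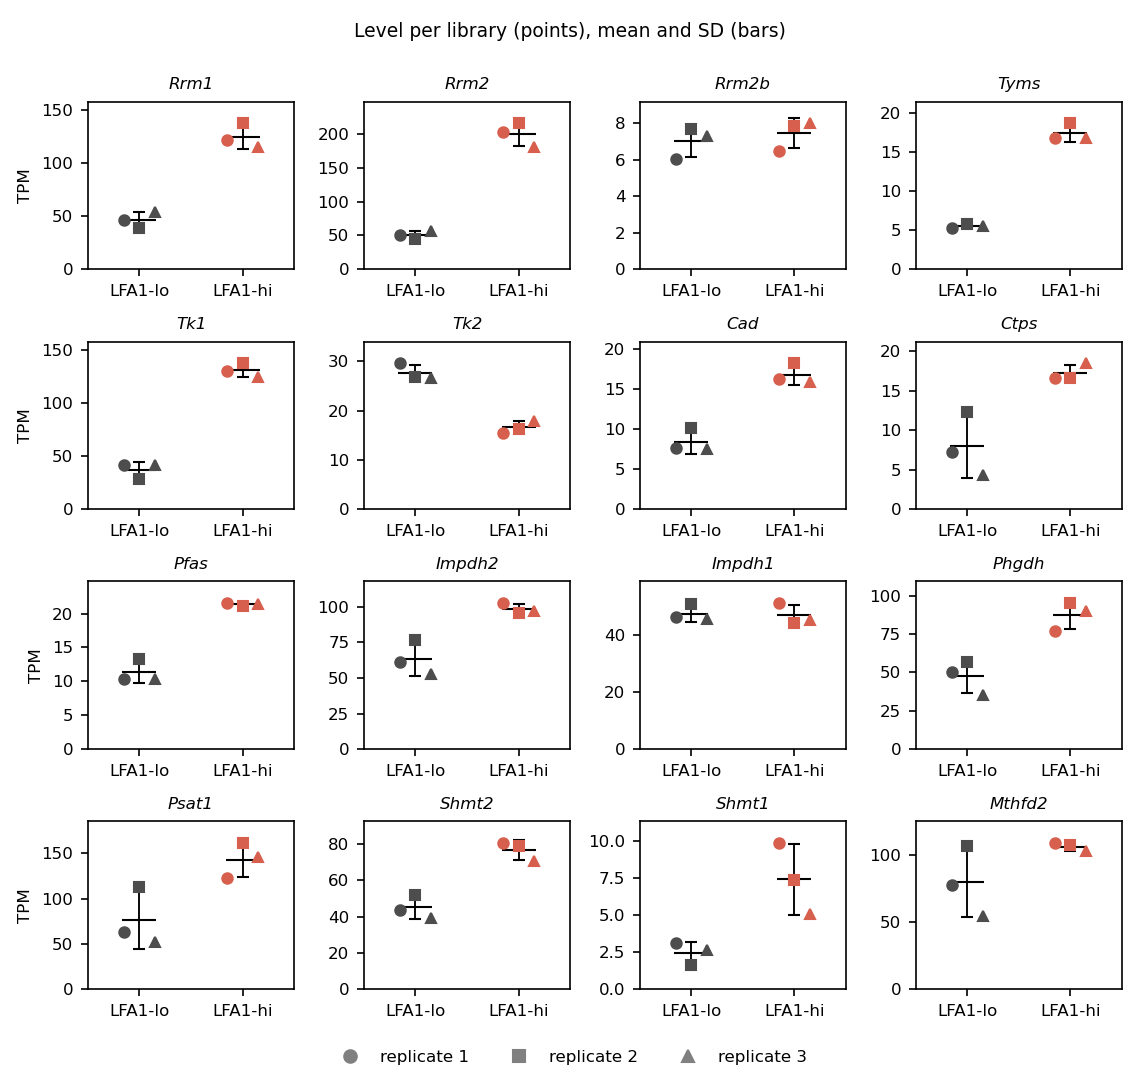
TPM of 16 members (y axes, from 0) in each library, with points for the libraries and bars for the mean and SD of 3. Rrm2, Tyms and Tk1 are apart between the groups, Rrm2b and Impdh1 overlap, Tk2 is lower in LFA1-hi, and LFA1-lo replicate 2 (square) is the highest LFA1-lo library for Psat1, Phgdh, Mthfd2 and Ctps.

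Pyrimidine synthesis rose in 4 of 6 members. Cad encodes the protein with the first 3 activities of the pathway, Dhodh the mitochondrial dehydrogenase of the next step and Umps the enzyme that ends at UMP. Cad was at 7.64, 10.2 and 7.50 TPM in LFA1-lo and 16.2, 18.2 and 15.96 TPM in LFA1-hi, with no overlap (log2 fold change 1.02 with SE 0.14, adjusted p = 0.000678 by edgeR). Umps went from 13.0 ± 0.416 to 21.8 ± 1.30 TPM (n = 3 each; 0.77, SE 0.10, adjusted p = 0.000646). Dhodh went from 4.94 ± 1.16 to 8.83 ± 1.04 TPM (0.86, adjusted p = 0.0175). Its call was lost without LFA1-hi replicate 1, LFA1-hi replicate 2 or LFA1-lo replicate 1, where the adjusted p reached 0.081 (from 0.00131 over alternatives).

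CTP synthase, which turns UTP into CTP, has 2 genes. Ctps stood at 7.22, 12.4 and 4.38 TPM in LFA1-lo, a wide range, and at 16.6, 16.7 and 18.5 TPM in LFA1-hi (log2 fold change 1.12, 95% interval 0.36 to 1.89, edgeR adjusted p = 0.0345). That call was lost without any 1 LFA1-hi library, without the first LFA1-lo replicate, and with no filter on low counts, with an adjusted p of up to 0.109 (from 1.16e-05 over alternatives). Ctps2 was at 20.8 ± 1.79 and 19.0 ± 0.811 TPM, with overlap, and its interval was −0.30 to 0.09 (adjusted p = 0.388). Uck2, a kinase that salvages uridine and cytidine, was at 19.7 ± 0.854 and 20.7 ± 3.16 TPM (0.10, 95% interval −0.27 to 0.46, adjusted p = 0.690). Without LFA1-hi replicate 1 its value was −0.05. The count of rising pyrimidine members was 2 without LFA1-hi replicate 1, LFA1-hi replicate 2 or LFA1-lo replicate 1.

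Purine synthesis rose in 9 of 10 members, none of them by 2-fold or more. The 6 enzymes that build inosine monophosphate (IMP) on PRPP, encoded by Ppat, Gart, Pfas, Paics, Adsl and Atic, all rose, by 0.26 to 0.93 on the log2 scale. Pfas was at 10.4, 13.3 and 10.4 TPM in LFA1-lo and 21.5, 21.2 and 21.4 TPM in LFA1-hi, the largest difference of this set (log2 fold change 0.93 with SE 0.12, adjusted p = 0.000529 by edgeR). Ppat, the amidotransferase that commits PRPP to the pathway, went from 10.8 ± 0.617 to 16.8 ± 1.80 TPM (n = 3 each; 0.66, SE 0.11, adjusted p = 0.0024). Paics, which carries out a pair of middle steps, was the most abundant at 108, 107 and 117 TPM in LFA1-lo and 129, 137 and 127 TPM in LFA1-hi. Its change was the smallest that passed (0.26, SE 0.07, adjusted p = 0.0224), although the groups did not overlap. Ppat (chromosome 5, 76913249 to 76951578) and Paics (chromosome 5, 76951302 to 76967509) overlap head to head on opposite strands, so reads there could be assigned to either. Their expected counts were whole numbers except in LFA1-lo replicate 2 (374.09 and 2071.91) and LFA1-hi replicate 2 (599.12 and 2538.88). Adsl went from 14.99 ± 1.57 to 20.95 ± 0.333 TPM (0.50, adjusted p = 0.00904), Gart, which has 3 activities, rose by 0.56 (adjusted p = 0.0169) and Atic, which ends the path at IMP, by 0.52 (adjusted p = 0.0201).

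From IMP the pathway splits. Impdh1 and Impdh2 encode IMP dehydrogenase, the entry to guanine nucleotides, Gmps the GMP synthetase and Adss the enzyme that starts the adenine branch. Impdh2 was at 61.1, 76.9 and 52.6 TPM in LFA1-lo and 102, 95.7 and 96.9 TPM in LFA1-hi (log2 fold change 0.65 with SE 0.14, adjusted p = 0.00848 by edgeR). Impdh1 was at 46.1, 50.7 and 45.3 TPM in LFA1-lo and 50.9, 44.2 and 45.2 TPM in LFA1-hi. The Impdh1 groups overlapped and the estimate was 0.00, with an interval of −0.23 to 0.23 (adjusted p = 0.986). Gmps (21.8 ± 0.930 to 26.4 ± 3.04 TPM, n = 3 each; 0.30, edgeR adjusted p = 0.0453) and Adss (80.6 ± 5.59 to 97.4 ± 3.23 TPM; 0.29, adjusted p = 0.018) rose by small amounts. Ppat, Pfas, Adsl and Impdh2 were called in each fit without 1 library. Gmps was lost when tested on log2 TPM and without any 1 library but LFA1-lo replicate 2 (adjusted p up to 0.173, from 0.00789 over alternatives), and Adss without any 1 of the LFA1-hi libraries (0.00546 to 0.0711). Paics and Atic were lost when LFA1-lo replicate 1 or 1 of the LFA1-hi libraries was left out (adjusted p 0.00743 to 0.0881 and 7.84e-05 to 0.0688 over alternatives), and Gart without LFA1-lo replicate 1 or LFA1-hi replicate 1 or 2 (7.93e-05 to 0.0637). The count of rising purine members was thus 4 without LFA1-hi replicate 1 or 2 and 5 without LFA1-hi replicate 3 or LFA1-lo replicate 1.

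Serine and folate genes rose in 6 of 8 cases. Phgdh, Psat1 and Psph encode the 3 steps that make serine from a glycolytic intermediate. Phgdh (chromosome 3, 98313171 to 98339969) was at 50.0, 57.0 and 35.3 TPM in LFA1-lo and 77.3, 95.02 and 90.4 TPM in LFA1-hi, without overlap (log2 fold change 0.90 with SE 0.17, adjusted p = 0.00495 by edgeR). Psph, which overlaps Cct6a, went from 12.9 ± 2.13 to 24.8 ± 2.52 TPM (n = 3 each; 0.95, SE 0.17, adjusted p = 0.00256). Psat1 was at 62.9, 113 and 52.7 TPM in LFA1-lo and 123, 161 and 146 TPM in LFA1-hi. LFA1-lo replicate 2 came close to the lowest LFA1-hi library, and the call was narrow (0.92, SE 0.29, adjusted p = 0.0469). Without LFA1-lo replicate 2 Psat1 had a log2 fold change of 1.35 (adjusted p = 1.74e-06), and without any other single library, or with no filter on low counts, it was not called (up to 0.134 over alternatives).

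Serine hydroxymethyltransferase moves a carbon from serine to folate, in the cytosol through Shmt1 and in mitochondria through Shmt2. Shmt2 was at 43.7, 52.0 and 39.3 TPM in LFA1-lo and 80.3, 78.9 and 70.5 TPM in LFA1-hi (log2 fold change 0.79 with SE 0.12, adjusted p = 0.0014 by edgeR). Shmt1, much scarcer, was at 3.08, 1.63 and 2.66 TPM in LFA1-lo and 9.83, 7.37 and 5.05 TPM in LFA1-hi, without overlap (1.62, 95% interval 0.89 to 2.34, adjusted p = 0.00503). Mthfd1, the cytosolic enzyme with 3 activities that converts folate one-carbon forms, went from 16.4 ± 2.33 to 33.5 ± 2.94 TPM (n = 3 each; 1.05, SE 0.13, adjusted p = 0.000472). The mitochondrial enzymes Mthfd2 and Mthfd1l did not pass. Mthfd2 was at 77.5, 107 and 54.8 TPM in LFA1-lo and 109, 107 and 103 TPM in LFA1-hi, so that LFA1-lo replicate 2 lay within the LFA1-hi range (0.43, 95% interval −0.10 to 0.96, adjusted p = 0.191). Mthfd1l was at 13.0, 20.5 and 11.9 TPM against 23.0, 24.8 and 20.8 TPM, just apart (0.61, adjusted p = 0.0538). Without LFA1-lo replicate 2 both were called (Mthfd2 0.73, adjusted p = 0.000737, and Mthfd1l 0.92, adjusted p = 7e-06), where the highest values over alternatives were 0.341 and 0.161. Mthfd1l was also called with DESeq2, limma voom and 7 other settings.

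PRPP synthetase, the source of activated ribose for purine and pyrimidine synthesis, is encoded by Prps1 and Prps2, both of which rose. Prps1 (chromosome X, 140456603 to 140476140) was at 10.4, 11.7 and 11.2 TPM in LFA1-lo and 22.5, 26.5 and 22.1 TPM in LFA1-hi (log2 fold change 1.10 with SE 0.13, adjusted p = 0.000362 by edgeR). Prps2 went from 18.4 ± 3.22 to 25.7 ± 1.08 TPM (n = 3 each; 0.50, adjusted p = 0.0132), a call lost without LFA1-hi replicate 1 or 2 (0.00145 to 0.0603 over alternatives). Nme1 and Nme2, nucleoside diphosphate kinases with closely related sequences, rose by 0.56 (edgeR adjusted p = 0.0411) and 0.47 (adjusted p = 0.0212). The expected counts of Nme1 and Nme2 were whole numbers in all 6 libraries, as when no read is divided between genes. Those of Prps1 (166.98 to 405.17) and of Pnp (1927.78 to 3111.45) were not whole in any library. Those of Tyms and Phgdh were not whole in some libraries. Reads of these genes may have been divided with other sequences. Nme2 was the most abundant member, at 387 ± 62.2 TPM in LFA1-lo and 536 ± 12.4 TPM in LFA1-hi. Nme2 was lost without any 1 LFA1-hi library (0.000165 to 0.0817 over alternatives), and Nme1 without any 1 library other than LFA1-lo replicate 2 (5.85e-06 to 0.120).

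Among the salvage enzymes, Aprt, which recovers adenine, and Ada, which deaminates adenosine, rose, while Hprt and Pnp did not pass. Aprt was at 237, 310.2 and 216 TPM in LFA1-lo and 394, 386 and 370.2 TPM in LFA1-hi (log2 fold change 0.60 with SE 0.14, adjusted p = 0.0112 by edgeR). Ada went from 4.41 ± 1.148 to 8.09 ± 1.01 TPM (n = 3 each; 0.90, adjusted p = 0.023). Hprt, which recovers hypoxanthine and guanine, was at 228 ± 33.8 and 261 ± 22.7 TPM with overlap (0.22, 95% interval −0.01 to 0.45, adjusted p = 0.140). Pnp, which splits purine nucleosides, was at 77.6, 98.9 and 122 TPM in LFA1-lo and 109, 115 and 100.2 TPM in LFA1-hi (0.14, 95% interval −0.20 to 0.48, adjusted p = 0.523; −0.02 without LFA1-lo replicate 1). The Aprt call was lost without LFA1-hi replicate 1 or LFA1-lo replicate 1 (1.05e-06 to 0.0533 over alternatives) and the Ada call without LFA1-hi replicate 1 or 2 (0.00665 to 0.0893). Hprt was called only without LFA1-lo replicate 3 (0.0435 to 0.365 over alternatives). Of the 8 PRPP, kinase and salvage genes 6 rose, but leaving out LFA1-hi replicate 1 left 1 and leaving out LFA1-hi replicate 2 left 2.

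Because TPM is per transcript length, related enzymes can be set against each other within a library. For 8 pairs the log2 ratio of TPM + 0.1 was compared between the groups with a 2-sided exact permutation test over libraries, which cannot give a p below 0.10 with 3 against 3. Rrm2 exceeded Rrm2b 5.84-fold to 8.48-fold across LFA1-lo and 22.6-fold to 31.1-fold in LFA1-hi libraries. The mean log2 ratio was 2.84 ± 0.28 against 4.72 ± 0.23 (SD, n = 3 each; difference 1.88, exact permutation p = 0.10, adjusted over 8 pairs 0.114). Tk1 was 1.07-fold to 1.56-fold Tk2 in LFA1-lo and 6.94-fold to 8.41-fold in LFA1-hi, the largest difference of the 8 (2.56 on the log2 scale). Both ratios were without overlap between the groups.

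The ratio of Ctps to Ctps2 was 0.214 to 0.641 across LFA1-lo and 0.847 to 0.955 in LFA1-hi, so Ctps2 was the more abundant in all 6 libraries. Impdh2 exceeded Impdh1 1.16-fold to 1.51-fold across LFA1-lo and 2.01-fold to 2.16-fold in LFA1-hi. The log2 ratio of Prps1 to Prps2 differed by 0.59 and that of Mthfd1 to Mthfd1l by 0.40. Shmt2 to Shmt1 was the pair with a lower ratio in LFA1-hi, with 14.2-fold to 31.9-fold among LFA1-lo libraries and 8.17-fold to 14.0-fold in LFA1-hi (log2 difference −0.78). In these 5 pairs too the groups did not overlap, with the same exact permutation p of 0.10 (n = 3 each). Nme1 to Nme2 overlapped (0.10, exact permutation p = 0.50, n = 3 each).

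**Figure D3:**
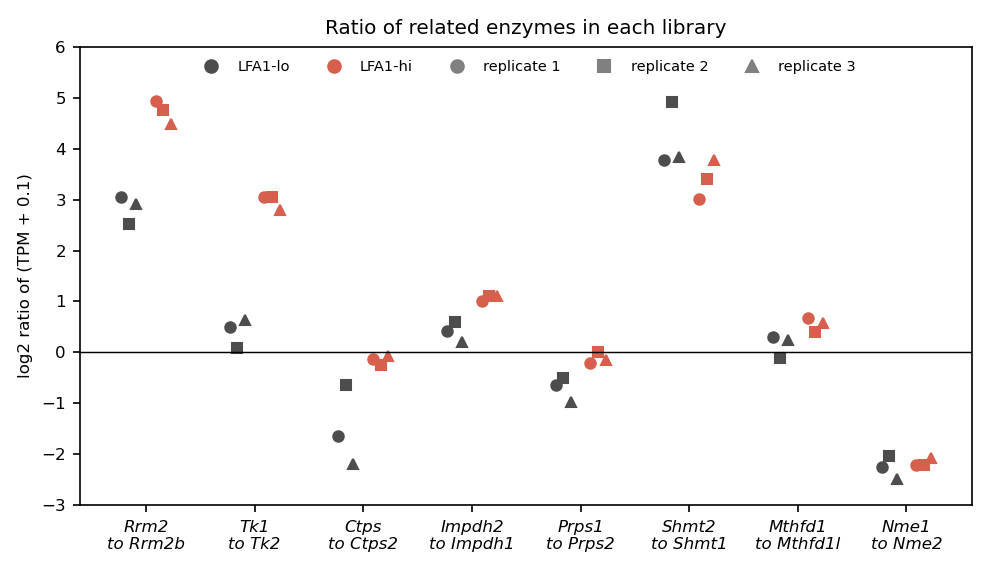
The log2 ratio of TPM + 0.1 (y axis) for 8 pairs of related enzymes (x axis) in the LFA1-lo (grey) and LFA1-hi (red) libraries, with a marker shape for each replicate. The group means of Tk1 to Tk2 differ by 2.56 and of Rrm2 to Rrm2b by 1.88, Shmt2 to Shmt1 differs by −0.78, and Nme1 to Nme2 overlaps.

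Within LFA1-lo the sets differed in which library was highest. LFA1-lo replicate 2 was the highest of the 3 LFA1-lo libraries for 29 of 43 members (67.4%), against 39.1% of all tested genes. This held for 7 of 8 serine and folate, 8 of 10 purine and 5 of 6 pyrimidine members, and for 5 of 11 dNTP members. In that library the serine and folate genes had a median log2 deviation of 0.27 from the LFA1-lo mean CPM, and in replicate 3 of −0.34. Of the dNTP genes, Rrm1, Rrm2, Tk1 and Dctpp1 were instead lowest in LFA1-lo replicate 2. So were 13 of the 20 markers of dividing cells (38.2% of all tested genes), and 15 of the 20 were highest in LFA1-lo replicate 3 (33.5%). The other 5 markers, Pcna, Mcm2, Mcm3, Mcm4 and Mcm5, were highest in LFA1-lo replicate 2. The members spread more among LFA1-lo libraries than among LFA1-hi libraries in 36 of 43 cases (83.7%, against 71.1% of tested genes), with a median coefficient of variation of CPM of 17.1% against 6.63%. Serine and folate genes had the widest spread in LFA1-lo (median 26.7%) and purine genes the narrowest (10.6%). In the edgeR fit both groups share an estimate of the spread for each gene, so its p-values pool these unequal spreads.

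**Figure D4:**
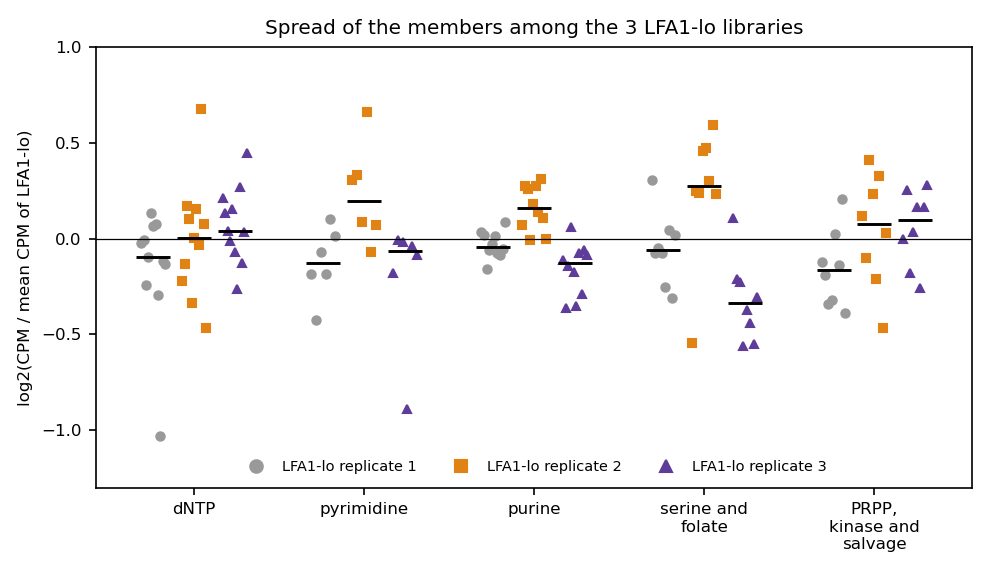
Log2 of each member's CPM over its LFA1-lo mean (y axis) in the 3 LFA1-lo libraries (marker shape and colour), by set (x axis), with a black line at the median. In replicate 2 the medians are 0.27 for serine and folate, 0.20 for pyrimidine, 0.16 for purine and 0.00 for dNTP genes.

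Other genes of these pathways were taken from 4 lists of 78 genes. Of 67 tested, 15 rose and 12 fell, where 16.1% of all tested genes rose and 15.6% fell. Their median log2 fold change was 0.12. Without a library the number that fell dropped to 5, 6 or 4 (LFA1-hi replicates 1, 2 and 3) or to 7 (LFA1-lo replicate 1 or 3). Dnph1, a hydrolase of deoxynucleotides, rose by 1.60 (edgeR adjusted p = 0.00102) and Nudt1, which clears oxidised purine nucleotides, by 0.82 (adjusted p = 0.0111). Samhd1, which breaks down dNTPs, was at 341, 492 and 395 CPM in LFA1-lo and 208, 201 and 199.5 CPM in LFA1-hi, with every LFA1-hi library lower (−1.01, SE 0.12, adjusted p = 0.000399). Dguok, the mitochondrial kinase of purine deoxynucleosides, fell by 0.48 on the log2 scale (adjusted p = 0.0382), a call lost with no filter on low counts, with scaling by library totals and without any 1 library but LFA1-lo replicate 2 (0.0176 to 0.142 over alternatives). Cmpk2, a nucleotide kinase of mitochondria induced by interferon, fell by 1.32 (adjusted p = 0.0333), which was lost with no filter, with limma voom and without LFA1-lo replicate 2 or 3 or any 1 LFA1-hi library (0.000329 to 0.133).

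Of purine salvage and breakdown, Gda, guanine deaminase, rose from 35.4 ± 8.29 to 71.7 ± 1.38 CPM (n = 3 each; log2 fold change 1.02, edgeR adjusted p = 0.00101), Adk, adenosine kinase, by 1.00 (adjusted p = 0.00431), Nme6 by 0.95 and Mtap, which recovers adenine from methylthioadenosine, by 0.87. The falls called in that list were those of Lacc1 (−0.53, adjusted p = 0.0145), Adssl1 (−0.52, adjusted p = 0.00984) and Nt5c2, a nucleotidase (−0.31, adjusted p = 0.025). Lacc1 was lost without LFA1-hi replicate 1 or 3 (0.00231 to 0.0594 over alternatives), Adssl1 without LFA1-hi replicate 3 (0.00088 to 0.0516), and Nt5c2 with scaling by library totals and without any 1 LFA1-hi library or LFA1-lo replicate 1 (0.0152 to 0.109). Of the folate and methionine genes, Ahcy, which hydrolyses S-adenosylhomocysteine, rose from 20.2 ± 6.71 to 48.0 ± 3.74 CPM (1.25, adjusted p = 0.00395). Mtrr, which reactivates methionine synthase, rose by 0.65 and Sfxn1, a mitochondrial serine carrier, by 0.59. Sfxn3, of the same carrier family, fell by 0.45. Slc29a3, a nucleoside transporter of lysosomes, fell by 0.59 (adjusted p = 0.000848). Called with less stability were Guk1 (0.50, adjusted p 0.0123 to 0.153 over alternatives), Slc29a1 (0.48, 0.00364 to 0.0655), Uckl1 (−0.45, 0.0317 to 0.157), Aldh1l1 (−0.69, 0.000127 to 0.0805) and Mat2b (−0.29, 0.0152 to 0.137). Guk1 was lost without LFA1-hi replicate 1 or 3 or LFA1-lo replicate 1 or 3, Slc29a1 without LFA1-hi replicate 1 or 2, and the other 3 without any 1 library but LFA1-lo replicate 2. Folr2, a folate receptor of macrophages, rose from 182 ± 51.2 to 314 ± 16.2 CPM (0.79, adjusted p = 0.0133; without LFA1-lo replicate 1, adjusted p = 0.0502, the highest of a range from 4.54e-05). Mthfd2l, a relative of Mthfd2, was at 1.997 to 4.08 CPM across LFA1-lo and 1.62 to 3.30 CPM in LFA1-hi (−0.14, adjusted p = 0.817). Of the 78 genes 11 were too low to be tested, among them Dpyd and Upb1 of pyrimidine breakdown and Cda, cytidine deaminase.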

How the data were processed

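Bulk RNA sequencing libraries of 6 macrophage cultures, 3 per sorted subset, were used. Per the submitters' processing notes, reads were processed with bcl2fastq, Trim Galore and RSEM on GRCm38; the sources used here do not give versions, the aligner, the annotation release or the strand setting. Per the file headers, the authors deposited expected counts (not normalized), TPM, scaled by effective length and to a fixed sum, and FPKM, scaled by effective length and depth.

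Expected counts were rounded (5.53% to 6.06% of genes per library were not whole), filtered with filterByExpr (11692 of 24411 genes kept) and scaled by TMM. Groups were compared by the robust quasi-likelihood method of edgeR 4.0.16 in R 4.3.3, and p-values were adjusted over the tested genes by Benjamini-Hochberg. On simulated data the procedure recovered 32 of 100 planted 1.5-fold changes and 71 of 100 planted 2-fold changes. Of its 111 calls 8 were false. Changes of this size can thus be missed. The simulation planted 100 changes of each size among 11692 genes, whereas 31.7% of tested genes were called in the data. The recovered shares are therefore not the power of this comparison. CPM use TMM-scaled library sizes, and 3 counts were 0.170 to 0.198 CPM of a library total. TPM ratios used a pseudocount of 0.1 and scipy 1.17.1. Alternatives used limma 3.58.1 and DESeq2 1.42.0. Coordinates and promoters are from RefSeq, matched by transcript accession, with promoters for 40 of 43 members. Members and lists were chosen with earlier results of these data known. All members could be named, and of each wider list up to 4 called genes each way with mean CPM of at least 1, plus genes including Samhd1 and Mthfd2l; some genes under this rule are not reported here; Dpyd, Upb1 and Cda were named after their values were seen.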

Additional observations from a re-analysis of the deposited data

How the results depend on the processing

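Of 280 alternative counts 258 stayed within 1.5 times the main count. These include counts of members that fell, which were 0 in the main fit for every set but dNTP. A count that stayed at 0 was taken as within 1.5 times. The fall of Tk2 entered both among all members and among dNTP genes, so this share overstates how stable the counts of rising members were. At an adjusted p of 0.01 the counts of members that rose were 20 in all, 2 for pyrimidine, 4 for purine and 1 for PRPP, kinase and salvage genes, and of the wider pathway 8 rose and 5 fell. Over the fits without 1 library, 20 to 36 members, 2 to 4 pyrimidine, 4 to 9 purine and 1 to 6 PRPP, kinase and salvage genes rose, and 4 to 12 wider pathway genes fell; these fits have fewer samples. Of the 34 members called, 21 were called in each of these 6 fits, 9 of them dNTP, 5 serine and folate, 4 purine, 2 pyrimidine and 1 of the PRPP, kinase and salvage genes. The sign changed for 3 members, none called: Impdh1 (0.00 with DESeq2 and with RLE factors, −0.02 on TPM, −0.07 to 0.08 without 1 library, −0.03 without LFA1-lo replicate 1 or 3), Uck2 (−0.05 to 0.18 without 1 library) and Pnp (−0.02 to 0.30). The log2 ratio of Nme1 to Nme2 was −0.02 without LFA1-lo replicate 3 and up to 0.21 without another library, and 79 of 80 alternative ratios kept their sign. The causes were not tested.

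The replicate numbers do not pair the samples by any label, and the deviations of same-numbered libraries correlated at 0.037, 0.018 and −0.072. With the replicate number as a block, 33 members rose and 1 fell, among them 8 purine and 7 serine and folate genes, and 8 of the wider pathway genes fell. Paics, Guk1, Dguok, Cmpk2, Uckl1 and Mat2b lost their calls and Mthfd1l gained one under this block. With 3 libraries per group, calls of small changes such as those of Gmps and Adss were lost when 1 LFA1-hi library was left out.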
